A study of Drosophila melanogaster with 24 samples.

Results

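The proteasome genes described here are 40 Drosophila genes, chosen by name: the symbol of a single-gene probe set had to start with Prosalpha, Prosbeta, Rpn and a number, or Rpt and a number. They were found among 13647 probe sets with 1 gene symbol, of 18769 probe sets tested in all, a probe set being the group of short oligonucleotides that together read a transcript. Of the 40 genes, 26 encode core subunits, and 14 have a T or an R after the number and encode the paralogues known in the fly as testis-specific. The core set held 6 alpha, 6 beta, 10 Rpn and 4 Rpt genes, and the paralogues were 4 alpha, 6 beta, 2 Rpn and 2 Rpt genes, each with 1 probe set. Prosalpha1, Prosalpha1R, Prosbeta1, Rpn9, Rpn10, Rpt1, Rpt6 and Rpt6R had no single-gene probe set and were not analysed here.

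RNA of whole animals was hybridised to 24 Affymetrix Drosophila Genome 2.0 arrays, 6 in each of 4 groups. The groups were adults and 3rd instar larvae of S_O2_A populations, which had been selected for life in hyperoxia over many generations, and adults and 3rd instar larvae of generation-matched control populations kept in room air. Selected and control populations descended from the same mixture of wild-type isogenic lines, and each group held 3 populations with 2 arrays per population. Because S_O2_A adults came from hyperoxia and control adults from room air, the effects of selection and of oxygen at collection cannot be told apart. Adult samples pooled males and females in equal number, so that testis and ovary contributed to every adult sample. For the larvae, neither sex nor oxygen level is stated in the sources used here, nor is the age of the adults.

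The proteasome is the protease that degrades proteins tagged with ubiquitin. Its barrel, the 20S particle, is built of rings of alpha subunits, which gate the entrance, and rings of beta subunits, of which Prosbeta1, Prosbeta2 and Prosbeta5 carry the active sites. Its cap, the 19S particle, holds a ring of ATPases (Rpt), which unfold substrates, and non-ATPase subunits (Rpn), which bind ubiquitin chains and remove them. In the fly testis several subunits have a further gene that is used in developing sperm, and Prosalpha6T is needed there for normal sperm maturation. The proteasome also clears oxidised proteins, and in the fly the factor Cnc induces its genes when the proteasome falls short.

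The core subunits were among the brightest probe sets on every array, whereas the paralogues were dim to intermediate. On single arrays the core probe sets lay between the 89.1 and 98.7 percentile of all signals, with a median at the 96.0 percentile. The paralogues lay between the 1.9 and 68.0 percentile, with a median at the 46.7 percentile. These ranks describe the brightness of the probes and do not compare amounts of RNA between genes. Core signals were also steadier between arrays of a group. Their standard deviation on the log2 scale ran from 0.11 for Prosalpha7 to 0.23 for Prosalpha6, with a median of 0.14. Among the paralogues it ran from 0.50 for Rpn12R to 1.42 for Prosbeta5R2, with a median of 0.69, and over all probe sets the median was 0.56. A difference of a given size was thus measured less precisely in a paralogue than in a core subunit. Of the 40 probe sets, 5 (Rpn6, Rpn13, Prosbeta5, Prosbeta7 and Rpn12R) carry the _s_at suffix, which marks probes that match several transcripts.

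**Figure D1:**
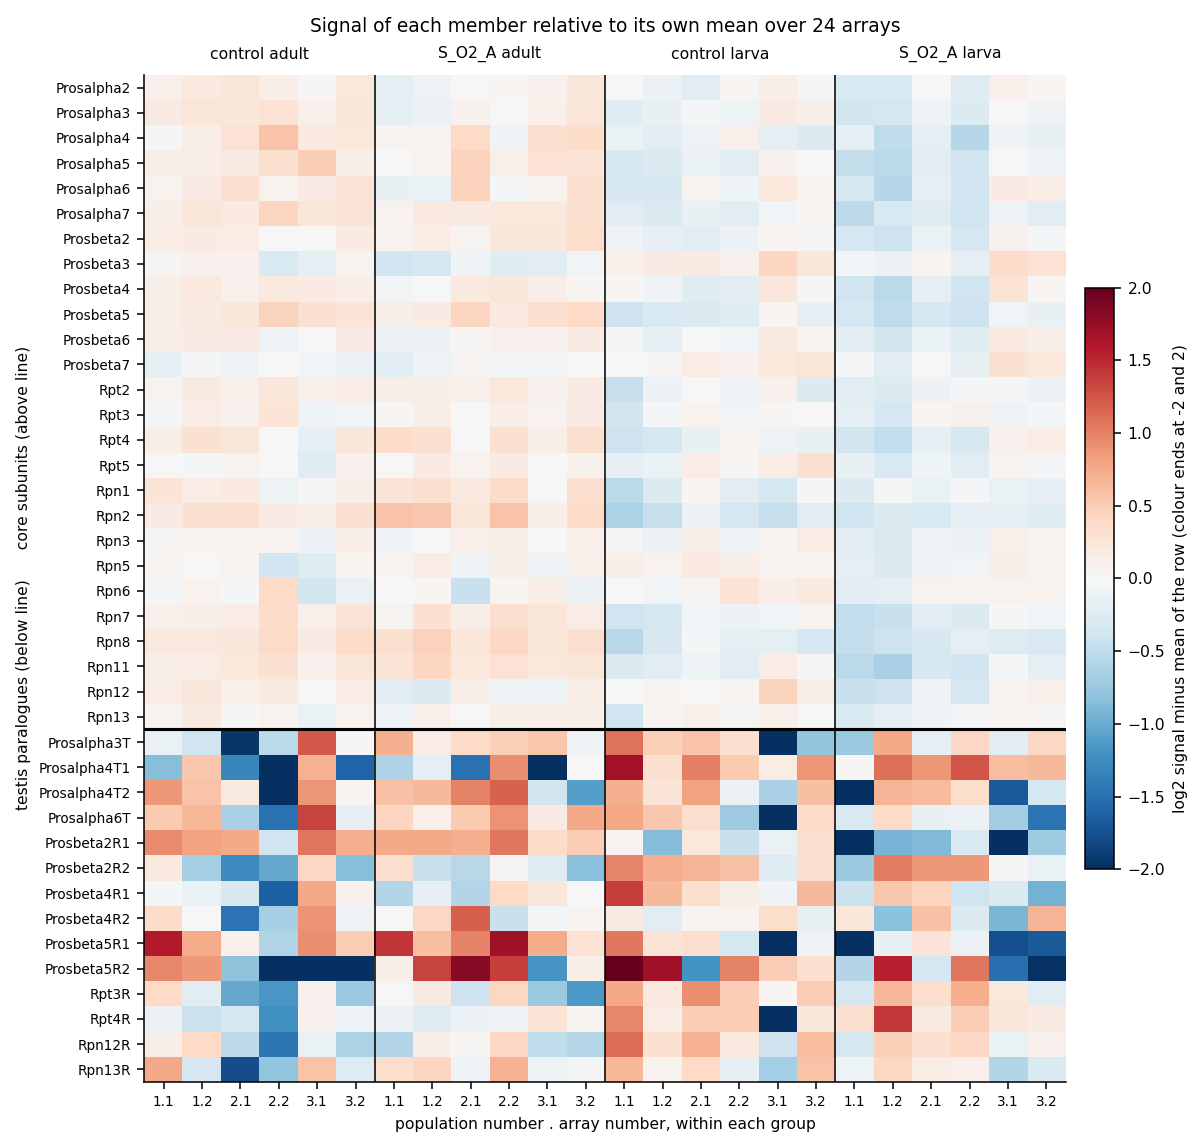
Log2 signal of each of the 40 genes on each of the 24 arrays, minus the mean of that gene over the 24 arrays (colour, ending at -2 and 2); columns are arrays in groups of 6, named by population and array number, and the thick line divides 26 core subunits from 14 testis paralogues. The core rows are pale, whereas many paralogue rows change colour together from 1 array to the next within a group.

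All arrays had the same trimmed mean signal, 2500.1, but their median signals ranged from 409.6, on an adult array of control population 2, to 697.4, on an adult array of control population 3. Differences were tested on log2 signals with limma over all 18769 probe sets, treating the population as a random block. A gene was called when its p, adjusted by Benjamini-Hochberg, was under 0.05. The p-values measure the spread between these arrays, given a correlation between arrays of a population that all probe sets share. That correlation was 0.133 in the adult fit, 0.153 in the larval fit and 0.0425 over both stages. The stage p-values thus treat arrays of a population as nearly independent. For a gene that varies more between populations than this, they can overstate the precision. The number of populations, 3 per selection group, limits the precision and is not fully carried by these p-values.

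The first comparison asked whether adult S_O2_A flies and control flies differed in the RNA of proteasome genes. None of the 40 genes was called changed, where 0.357% of all probe sets were called, and none had an unadjusted p under 0.05, where 11.1% of all probe sets did. The log2 fold changes of the 26 core subunits, S_O2_A minus control, ran from -0.20 for Rpn12 to 0.17 for Rpn2, with a median of 0.01 (0.02 under quantile normalization and -0.08 with arrays centred on their medians) beside a median of 0.06 over all probe sets. The 95% interval of all 26 lay within a 1.5-fold difference either way, as it did for 32.0% of all probe sets. In whole animals, fewer cells of a type and less RNA per cell cannot be told apart.

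Among the active-site subunits, Prosbeta5, which carries the chymotrypsin-like site, had a lowest, median and highest signal of 33132, 36267 and 41604 in control adults and of 33198, 36492 and 41135 in S_O2_A adults. The 2 ranges nearly coincided, and the log2 fold change was 0.01 (standard error 0.10, 95% interval -0.21 to 0.23, adjusted p = 0.979 from limma). Prosbeta2, which carries the trypsin-like site, measured 26857, 29939.8 and 30263 in control adults and 28008, 30718 and 34404 in S_O2_A adults. The ranges overlapped, although 3 S_O2_A arrays lay above every control array (log2 fold change 0.07, standard error 0.09, 95% interval -0.13 to 0.28, adjusted p = 0.821).

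The alpha ring and the cap leaned to different sides of 0 by small amounts. All 6 alpha genes had adult log2 fold changes below 0, from -0.19 to -0.03, also under quantile normalization and median centring, but 3 of 6 were below 0 without S_O2_A population 1. Prosalpha3 measured 24742, 27054 and 28332 in control adults and 20478, 23654 and 27139.6 in S_O2_A adults. Of its S_O2_A arrays, 5 lay below every control array, and the remaining 1 lay within the control range (log2 fold change -0.19, standard error 0.10, adjusted p = 0.504 from limma).

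In the cap, 11 of 14 genes had adult log2 fold changes above 0 (12 under quantile normalization and 6 with median centring). Rpn2, a scaffold subunit, measured 13422, 14310.4 and 15200.4 in control adults and 13354, 16741 and 18097 in S_O2_A adults. Of its S_O2_A arrays, 4 lay above the control range and 1 below it (log2 fold change 0.17, standard error 0.11, adjusted p = 0.624). Rpn12, a lid subunit, lay on the other side, with 17762, 19803 and 21012 in control adults and 14805, 16876 and 19598 in S_O2_A adults. Here 4 control arrays were above every S_O2_A array and 4 S_O2_A arrays were below every control array, yet the groups overlapped (log2 fold change -0.20, standard error 0.10, adjusted p = 0.512). The groups overlapped in adults for all 40 genes, whereas 2.4% of all probe sets had groups that did not.

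All 14 testis paralogues had an adult log2 fold change above 0 (12 under quantile normalization and 13 with median centring), as did 57.9% of all probe sets, but none was called. The fold changes ran from 0.04 for Prosbeta2R1 to 1.75 for Prosbeta5R2, with a median of 0.34, and the smallest adjusted p was 0.46. This shared sign rested on 1 population: without control population 2, 5 of 14 were above 0 and the median was -0.10. With only the first array of each population 7 of 14 were above 0. The 95% interval lay within 1.5-fold for 1 of the 14 paralogues, so most differences of that size were not detectable.

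The beta paralogues held the widest and the narrowest of these differences. Prosbeta5R2, a paralogue of the Prosbeta5 active-site subunit, measured 240.4 and 224 in adults of control population 1, 70.7 and 19.7 in population 2, and 26.1 and 14.8 in population 3. In S_O2_A adults it measured 133 and 315 in population 1, 434 and 321 in population 2, and 54.1 and 135 in population 3. Control population 1 thus lay inside the S_O2_A range, and 4 control arrays were under 90.4, the 20th percentile of all signals. The log2 fold change was 1.75 (standard error 0.82, 95% interval -0.05 to 3.55, adjusted p = 0.46 from limma), and 0.72 with signals raised to at least that percentile.

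Prosbeta5R1, the other paralogue of Prosbeta5, measured 227, 536 and 1042 in control adults and 424, 629.8 and 1124 in S_O2_A adults, with 2 control arrays below the S_O2_A range (log2 fold change 0.41, standard error 0.37, adjusted p = 0.743). The paralogues of the Prosbeta2 active-site subunit lay closer to 0. Prosbeta2R1 measured 309, 703 and 857 in control adults and 524, 677 and 843 in S_O2_A adults, 1 range inside the other (log2 fold change 0.04, standard error 0.25, adjusted p = 0.975). Prosbeta2R2 measured 326, 467 and 1049.8 in control adults and 442, 620.0 and 996 in S_O2_A adults, again with the S_O2_A range inside that of the controls (log2 fold change 0.24, standard error 0.34, adjusted p = 0.836).

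Prosbeta4R1 and Prosbeta4R2 are paralogues of the structural subunit Prosbeta4 that lie near each other in the RefSeq annotation, with 1 coding gene between them. Prosbeta4R1 measured 179, 527 and 945 in control adults and 373, 529 and 736 in S_O2_A adults, with medians that nearly coincided (log2 fold change 0.10, standard error 0.37). Prosbeta4R2 measured 72.2, 193 and 374 in control adults and 147, 206 and 459 in S_O2_A adults, and 2 control arrays lay below the S_O2_A range (log2 fold change 0.37, standard error 0.41).

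Among the alpha paralogues the control arrays spread more widely than the S_O2_A arrays in Prosalpha3T and Prosalpha6T. Prosalpha6T measured 216, 712 and 1567 in control adults and 656, 851 and 1138 in S_O2_A adults, so that 3 control arrays lay below the S_O2_A range and 1 above it (log2 fold change 0.44, standard error 0.43, adjusted p = 0.767). Prosalpha3T measured 77.5, 249.6 and 703 in control adults and 286, 407 and 486 in S_O2_A adults, with 4 control arrays below that range and 1 above (log2 fold change 0.67, standard error 0.43, adjusted p = 0.621). Prosalpha4T1 and Prosalpha4T2, both paralogues of Prosalpha4, overlapped almost wholly between groups. Prosalpha4T1 measured 51.7, 153 and 515 in control adults and 53.2, 245 and 605 in S_O2_A adults (log2 fold change 0.20, standard error 0.75). Prosalpha4T2 measured 36.1, 521 and 735 in control adults and 186, 610.3 and 897 in S_O2_A adults (log2 fold change 0.48, standard error 0.76).

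The 4 cap paralogues had adult log2 fold changes between 0.16 and 0.51. Rpn13R, a paralogue of the ubiquitin receptor Rpn13, measured 101, 283 and 585 in control adults and 324, 387 and 561 in S_O2_A adults, and 4 control arrays lay below the S_O2_A range (log2 fold change 0.51, standard error 0.40, adjusted p = 0.697). Rpt4R, an ATPase paralogue, measured 197, 393 and 486 in control adults and 383, 431 and 554 in S_O2_A adults, with 3 control arrays below that range (log2 fold change 0.31, standard error 0.21, adjusted p = 0.652). Rpn12R measured 266, 586 and 963 in control adults and 489, 624 and 978 in S_O2_A adults, and Rpt3R measured 370.1, 604 and 1085 and then 372, 723 and 1105. The groups of these 2 genes overlapped over most of their range, with log2 fold changes of 0.19 (standard error 0.32) and 0.16 (standard error 0.35).

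**Figure D2:**
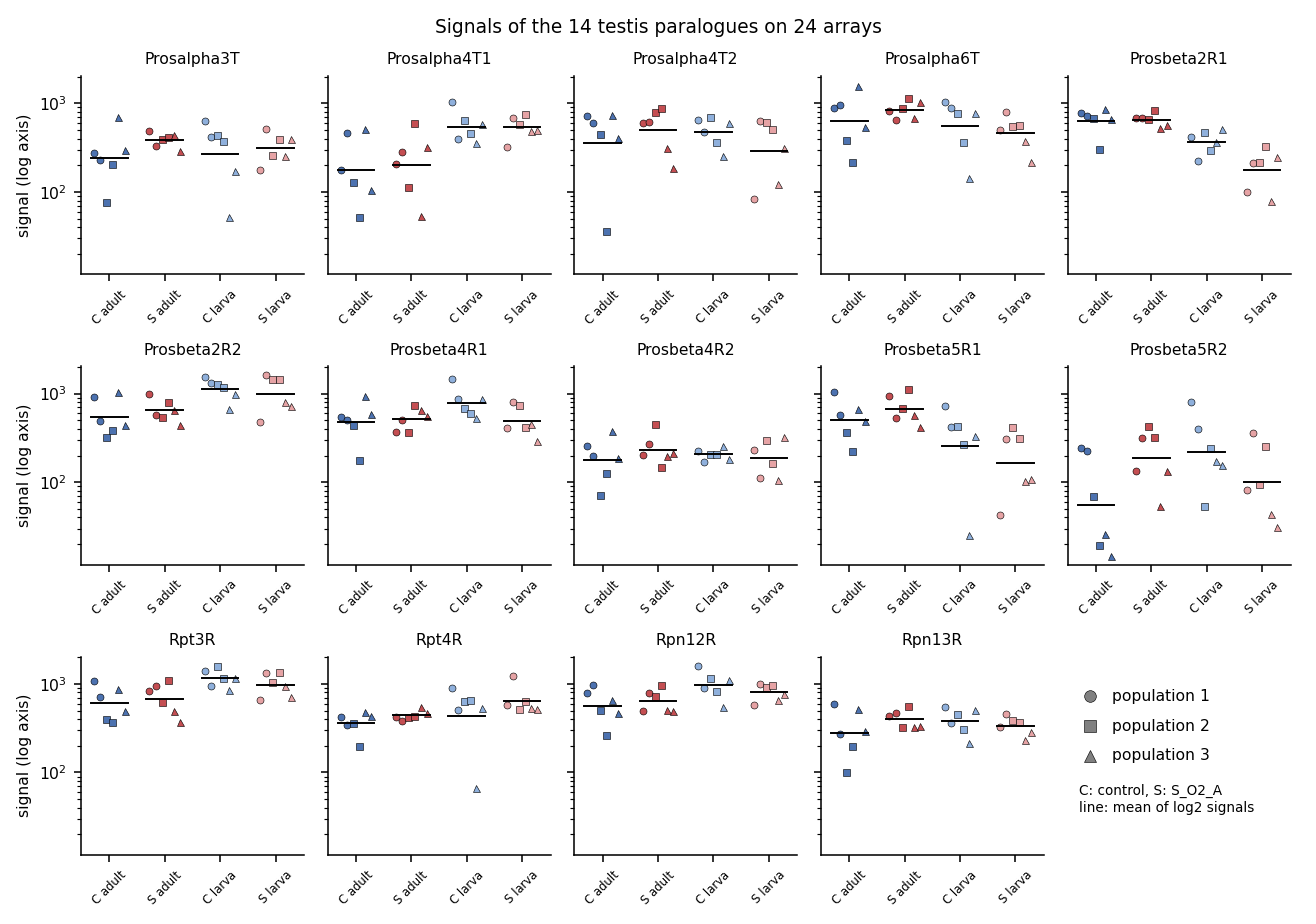
Signal (log axis) of each of the 14 testis paralogues on every array, by group (C, control; S, S_O2_A), with symbols for the population and a line at the mean of the log2 signals. The adult arrays of control population 2 (dark blue squares) are low in most panels, and Prosbeta5R2 spans the widest range, from 14.8 to 802.

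The same comparison in larvae also called none of the 40 genes, where 1.65% of all probe sets were called. The core subunits had a median log2 fold change of -0.11, which equalled the median of all probe sets, and 23 of 26 were below 0. That direction depended on the scaling, since the median was -0.18 under quantile normalization and 0.07 with median centring, where 3 of 26 were below 0. The 95% interval lay within 1.5-fold for 25 of 26, as for 28.0% of all probe sets. None of the larval groups was separated in any of the 40 genes, beside 4.12% of all probe sets.

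Rpn12 had the core difference farthest from 0 in larvae as in adults. It measured 18024, 18609 and 24524 in control larvae and 13171, 15617 and 19156 in S_O2_A larvae, with 4 S_O2_A arrays below the control range and 2 control arrays above the S_O2_A range (log2 fold change -0.30, standard error 0.14, 95% interval down to -0.61, adjusted p = 0.311 from limma). Rpn11, the deubiquitinase of the cap, measured 18604, 20467 and 25172 in control larvae and 14602, 17679 and 22204 in S_O2_A larvae (log2 fold change -0.25, standard error 0.13, adjusted p = 0.39). Its groups overlapped in the same way, 4 S_O2_A arrays being low. Rpt5, an ATPase, measured 13535, 16014 and 18719 in control larvae and 12140.4, 13875 and 15668 in S_O2_A larvae, with 3 control arrays above the S_O2_A range (log2 fold change -0.18, standard error 0.12, adjusted p = 0.485). Rpn5, a lid subunit, differed by the same amount (-0.18, standard error 0.10, adjusted p = 0.406). The active-site subunits had larval log2 fold changes of -0.11 (Prosbeta2, standard error 0.12) and -0.07 (Prosbeta5, standard error 0.12).

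Of the paralogues, 12 of 14 had larval log2 fold changes below 0 (10 under quantile normalization and 10 with median centring) and 2 above 0, as were 38.7% of all probe sets, with a median of -0.26 that shrank to -0.10 and -0.07 under those scalings. Prosbeta2R1 was the single one of the 40 genes with an unadjusted p from limma under 0.05, beside 16.2% of all probe sets. It measured 223, 396 and 515 in control larvae and 79.1, 216 and 329 in S_O2_A larvae. Here 4 control arrays lay above every S_O2_A array and 4 S_O2_A arrays below every control array (log2 fold change -1.06, standard error 0.40, 95% interval -1.93 to -0.20, adjusted p = 0.205 from limma). Its S_O2_A arrays included 1 under the 20th percentile of all signals. Under alternatives other than leaving out a population, the log2 fold change ran from -1.8 to -0.33.

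Prosbeta5R2, which lay on the higher side in S_O2_A adults, lay on the lower side in S_O2_A larvae. It measured 53.6, 209 and 802 in control larvae and 31.3, 89.2 and 362 in S_O2_A larvae, where 3 arrays were under the 20th percentile (log2 fold change -1.13, standard error 0.78, adjusted p = 0.516). Prosbeta5R1 measured 25.6, 373 and 720.3 in control larvae and 43.0, 209 and 417 in S_O2_A larvae, with 1 array of each group under the 20th percentile (log2 fold change -0.66, standard error 0.88, adjusted p = 0.767). Prosbeta4R1 measured 530.0, 779 and 1449 in control larvae and 289, 438 and 804 in S_O2_A larvae (log2 fold change -0.69, standard error 0.32, adjusted p = 0.322), and 4 S_O2_A arrays lay below the control range. Rpt4R and Prosalpha3T had values above 0, 0.54 (standard error 0.60) and 0.22 (standard error 0.58). In each, 2 control arrays lay below the S_O2_A range. Of these, 1 was under the 20th percentile, at 66.1 for Rpt4R and 51.6 for Prosalpha3T.

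**Figure D3:**
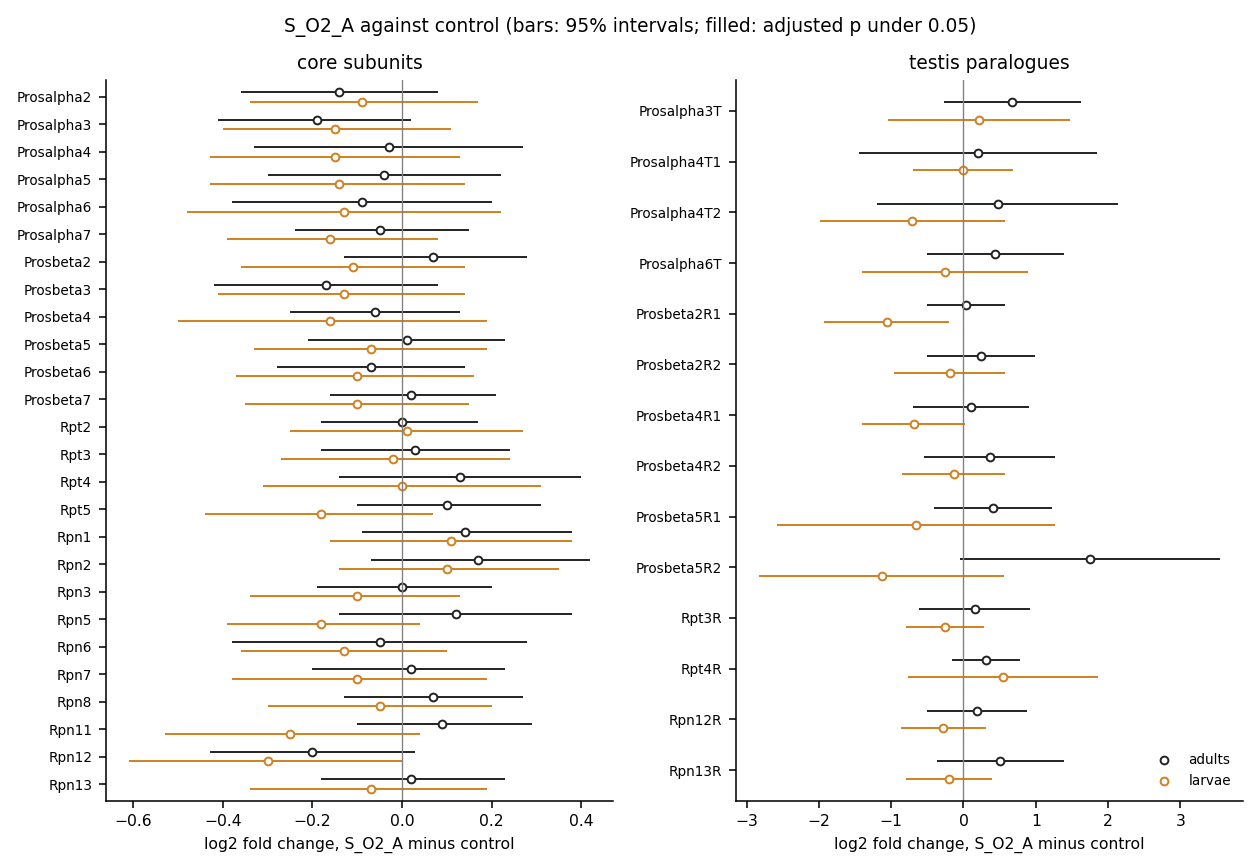
Log2 fold change of S_O2_A against control for each gene, with 95% intervals, in adults (black) and larvae (orange); the left panel shows 26 core subunits and the right panel 14 testis paralogues on a wider axis. No point is filled, since no gene reached an adjusted p under 0.05, and the intervals of the core subunits are several times shorter than those of the paralogues.

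Whether the selection effect differed between adults and larvae was tested as an interaction over all 24 arrays. None of the 40 genes was called, where 1.97% of all probe sets were called, and 5 had an unadjusted p under 0.05, beside 17.8% of all probe sets. The differences, adult effect minus larval effect, had a median of 0.10 in the core subunits (0.15 under quantile normalization and -0.17 with median centring) and of 0.16 over all probe sets. Of the 5 genes, 3 were cap subunits: Rpn11 (0.34, standard error 0.14, adjusted p = 0.203 from limma), Rpn5 (0.30, standard error 0.13, adjusted p = 0.24) and Rpt5 (0.28, standard error 0.13, adjusted p = 0.244). The others were the paralogues Prosbeta2R1 (1.10, standard error 0.43, adjusted p = 0.179) and Prosbeta5R2 (2.89, standard error 1.06, 95% interval 0.69 to 5.09, adjusted p = 0.154). Among the alternatives run, Prosbeta5R2 was called only with a fixed term for each population (adjusted p = 0.0386 from limma, standard error 0.69). The paralogue median was 0.60 (0.31 under quantile normalization, 0.33 with median centring, and 0.16 without control population 2).

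Adults and larvae differed in many more probe sets, 51.0% of which were called in control populations (28.9% higher and 22.1% lower in adults) and 53.6% in S_O2_A populations (34.1% higher and 19.4% lower). In control populations 12 core subunits were higher in adults and 1 was lower. In S_O2_A populations 13 were higher and 1 was lower. Counted in either direction, 13 and 14 of 26 core subunits were near the background share. These counts moved with the scaling, to 21 in controls and 24 in S_O2_A under quantile normalization, and to 5 in S_O2_A with median centring. Median log2 fold changes, adult minus larva, were 0.22 in controls (0.47 under quantile normalization, 0.33 with median centring; 0.09 over all probe sets) and 0.27 in S_O2_A (0.56 and 0.12; 0.30 over all probe sets). Both comparisons come from 1 fit, and their values stand side by side.

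Rpn2 and Rpn8 were the cap subunits with the widest stage difference in controls. Rpn2 measured 7885, 9236 and 11159.7 in control larvae against 13422 to 15200.4 in control adults, with no overlap (log2 fold change 0.60, standard error 0.10, adjusted p = 9.81e-06 from limma). In S_O2_A it measured 9226, 10143 and 10819 in larvae against 13354 to 18097 in adults (0.67, standard error 0.10, adjusted p = 1.95e-06). Rpn8, the partner of Rpn11, measured 7035, 8638 and 10126 in control larvae and 11569, 12014 and 13506 in control adults, again apart (0.53, standard error 0.09, adjusted p = 1.15e-05). In S_O2_A it measured 7379.5, 8348 and 9172 in larvae and 12198, 12882 and 14119 in adults (0.65, standard error 0.09, adjusted p = 6.47e-07). Rpn11 rose from larvae to adults by 0.29 in controls (standard error 0.10, adjusted p = 0.0146) and by 0.63 in S_O2_A (standard error 0.10, adjusted p = 6.71e-06). Rpn1, the other scaffold subunit, was higher in adults by 0.34 and 0.38, Rpn7 by 0.34 and 0.45, and the ATPases Rpt2 by 0.27 and 0.26 and Rpt4 by 0.31 and 0.44, in controls and S_O2_A respectively. With median centring the calls of Rpn1, Rpn7, Rpt2 and Rpt4 in S_O2_A were lost, as were those of Rpn11 and Rpt4 in controls. Rpn3, Rpn5, Rpn6, Rpn12, Rpn13, Rpt3 and Rpt5 were called in neither group, with values from -0.18 to 0.21.

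Of the active-site subunits, Prosbeta5 measured 22937, 25329.8 and 31443 in control larvae, all below the 33132 to 41604 of control adults (log2 fold change 0.49, standard error 0.09, adjusted p = 9.77e-05 from limma). In S_O2_A larvae it measured 21529, 24212 and 29380.5, below the 33198 to 41135 of S_O2_A adults (0.57, standard error 0.09, adjusted p = 1.33e-05). Prosbeta2 was called in S_O2_A (0.37, standard error 0.09, adjusted p = 0.000911) and had 0.19 in controls (adjusted p = 0.0785). Prosbeta4, a structural subunit, was likewise called in S_O2_A (0.29, standard error 0.11, adjusted p = 0.0353) and had 0.19 in controls (adjusted p = 0.171). With median centring neither was called in S_O2_A (Prosbeta2 0.21, adjusted p = 0.264; Prosbeta4 0.13, adjusted p = 0.569), and the Prosbeta4 call was also lost without S_O2_A population 1 (adjusted p = 0.187) or 2 (adjusted p = 0.329). In the alpha ring, Prosalpha7 (0.39 in controls and 0.50 in S_O2_A), Prosalpha5 (0.38 and 0.48) and Prosalpha4 (0.36 and 0.49) were higher in adults of both groups, while Prosalpha3 was called in controls (0.25) and had 0.20 in S_O2_A (adjusted p = 0.0617). The S_O2_A calls of Prosalpha7, Prosalpha5 and Prosalpha4, and the control call of Prosalpha3, were also lost with median centring. Prosalpha2, Prosalpha6 and Prosbeta6 were called in neither group, with values from 0.10 to 0.29.

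Prosbeta7 and Prosbeta3, structural subunits of the beta ring, were the calls in the other direction, and both turned under quantile normalization. Prosbeta7 measured 31982, 34468 and 37697 in control larvae and 28159, 29991.6 and 31623 in control adults, with no overlap, beside 15.5% of all probe sets that were wholly lower (-0.20, standard error 0.08, adjusted p = 0.0481). It was, however, 0.21 under quantile normalization (adjusted p = 0.0314), and the call was lost without any 1 of the control populations. Prosbeta3 was lower in S_O2_A adults by -0.28 (standard error 0.10, adjusted p = 0.0271) and was 0.24 under quantile normalization (adjusted p = 0.0685).

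In controls, 6 core subunits had adult signals wholly above the larval ones (Rpn2, Rpn7, Rpn8, Prosalpha5, Prosalpha7 and Prosbeta5), beside 22.5% of all probe sets, and in S_O2_A there were 9, beside 25.1%. Rpn2, Rpn8, Prosalpha7 and Prosbeta5 were called in controls also with any 1 of the 3 control populations left out. The number of core calls in controls was 5 without control population 1 and 8 without control population 2, beside 45.1% and 45.6% of all probe sets.

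**Figure D4:**
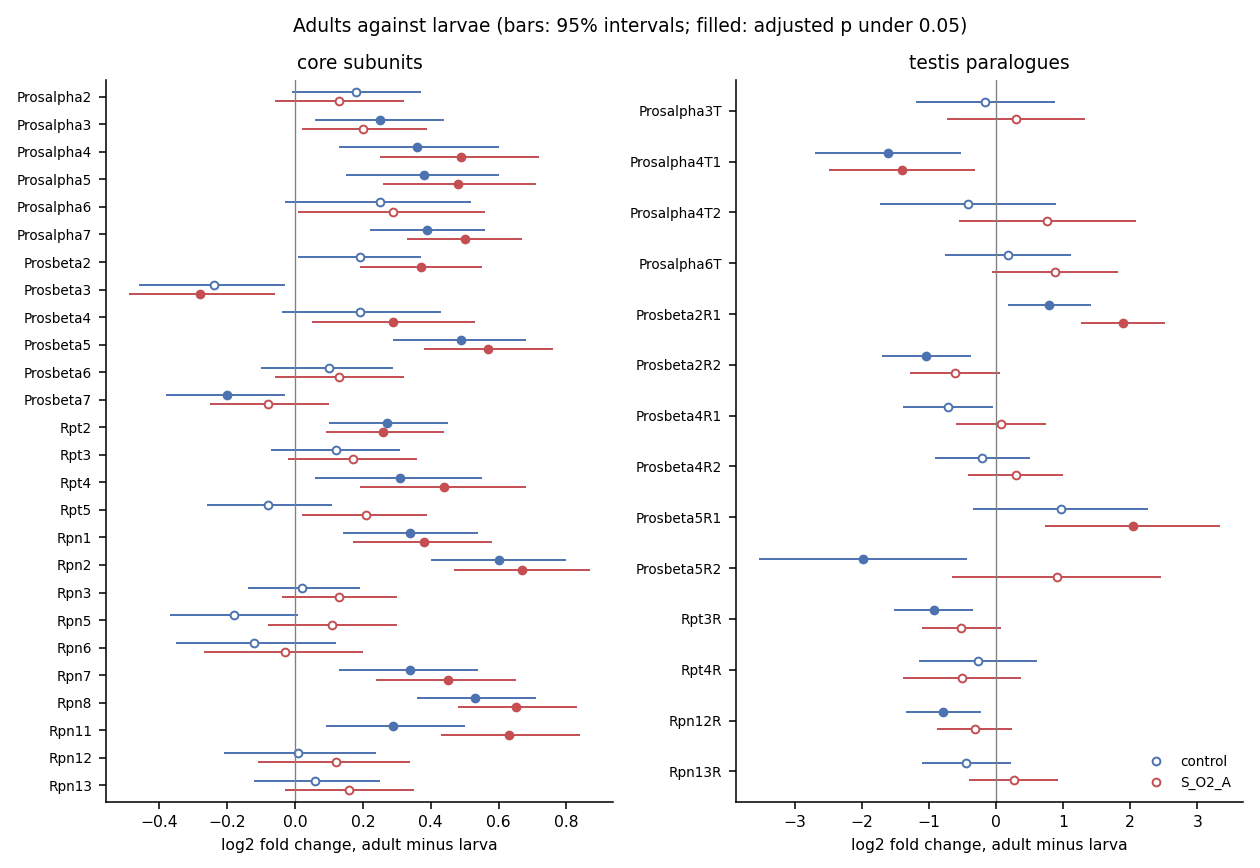
Log2 fold change of adults against larvae for each gene, with 95% intervals, in control (blue) and S_O2_A (red) populations; filled points have an adjusted p under 0.05. Most core subunits lie to the right of 0, by up to 0.67, whereas the paralogues lie on both sides, from -1.99 for Prosbeta5R2 in controls to 2.04 for Prosbeta5R1 in S_O2_A.

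The paralogues split between the stages. In controls 1 of 14 was called higher in adults and 5 lower, beside 28.9% and 22.1% of all probe sets. In S_O2_A 2 were higher and 1 lower, beside 34.1% and 19.4%. The median log2 fold change was -0.43 in controls (-0.29 under quantile normalization and -0.33 with median centring) and 0.28 in S_O2_A (0.12 under both scalings). The control calls rested on population 2: without it, none of the 14 was called lower, 1 was called higher, and the median was 0.13. Without control population 3, 7 were called lower. Of all probe sets, 45.6% were called in either direction without control population 2 and 47.2% without control population 3.

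Prosbeta2R1 and Prosbeta5R1 lay on the adult side. Prosbeta2R1 was higher in adults by 0.79 in controls (standard error 0.30, adjusted p = 0.0313 from limma), where the low adult array of population 2 overlapped the larvae, and by 1.89 in S_O2_A (standard error 0.30, adjusted p = 9.66e-06), where the 524 to 843 of adults stood clear of the 79.1 to 329 of larvae. The call in controls was lost without population 1 (0.55, adjusted p = 0.281) and without population 3 (0.79, adjusted p = 0.109), whereas that in S_O2_A held without any 1 of the populations. Prosbeta5R1 was higher by 2.04 in S_O2_A adults (standard error 0.63, adjusted p = 0.0086), whose 424 to 1124 stood clear of the 43.0 to 417 of larvae, and had 0.97 in controls (standard error 0.63, adjusted p = 0.22). With S_O2_A population 1 or 3 left out, 1 paralogue was called between stages in S_O2_A.

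Prosalpha4T1 was called lower in adults of both groups, and with the arrays as deposited it was the only such paralogue. It measured 355, 523 and 1027 in control larvae against 51.7 to 515 in control adults (log2 fold change -1.62, standard error 0.53, adjusted p = 0.0127). In S_O2_A it measured 323, 543 and 759.7 in larvae against 53.2 to 605 in adults (-1.41, standard error 0.53, adjusted p = 0.0277). The adult and larval ranges overlapped in both, and the call was lost without control population 2 in controls (-1.06, adjusted p = 0.186) and without any 1 of the populations in S_O2_A (adjusted p from 0.0619 to 0.146). Prosbeta2R2 (-1.04, adjusted p = 0.00855), Rpt3R (-0.93, adjusted p = 0.00814), Rpn12R (-0.79, adjusted p = 0.0185) and Prosbeta5R2 (-1.99, adjusted p = 0.0303) were called lower in control adults, and in S_O2_A had -0.61, -0.52, -0.32 and 0.90 with no call. Under quantile normalization Prosbeta2R2 (-0.94), Rpt3R (-0.85) and Rpn12R (-0.59) were called lower in S_O2_A adults too, and with median centring Prosbeta2R2 (-0.77) and Rpt3R (-0.68) were. Prosalpha6T had 0.17 in controls and 0.87 in S_O2_A (adjusted p = 0.113).

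Markers of testis are given beside these values, since larval and adult testes hold different stages of sperm development. Of 31 listed testis genes 29 were measured, and none was under the 20th percentile on all arrays of a group. Their summed signal ran from 60402 to 188037 in control adults, 106170.5 to 182809 in S_O2_A adults, 32017 to 99036 in control larvae and 29430.5 to 69783 in S_O2_A larvae. Between selection groups 0 of 29 were called in adults or larvae, where 0.357% and 1.65% of all probe sets were, with median log2 fold changes of 0.34 and -0.45. Between stages in controls 6 were higher in adults and 6 lower, beside 28.9% and 22.1% of all probe sets. CycB3 (3.02) and twe (2.86) were highest, ahead of sperm-tail genes such as Mst84Dc (1.32) and Mst87F (1.31). The lower ones included the meiotic arrest genes comr (-3.18), aly (-2.38) and sa (-1.41), which act in spermatocytes. The adult pools also held ovary, and its part in the signals of the listed testis genes was not tested. In S_O2_A 17 were higher and 4 lower, beside 34.1% and 19.4%. Of 21 ovary genes 17 were measured, and all 17 were higher in adults of both groups. The part of the makeup of the tissue in the paralogue differences was not tested.

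Within groups, the paralogues moved from array to array as a set. On the adult array with the lowest median signal, the second of control population 2, 0 of 14 paralogues were above their group mean and their median deviation was -1.07 on the log2 scale. On the adult array with the highest median signal, the first of control population 3, 13 of 14 were above it, with a median deviation of 0.91. Among larval arrays, the highest median signal (685.5, first array of control population 2) came with 12 of 14 above (0.31), and the lowest (483.5, second array of S_O2_A population 3) with 4 of 14 above (-0.27). The widest larval deviations, 0.78 and -0.79, were on the first arrays of control populations 1 and 3, with median signals of 668.5 and 522.6.

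Over the 24 arrays the median deviation of the paralogues followed the log2 median signal of the array, with a Pearson correlation of 0.92 and a Spearman correlation of 0.89 (0.88 and 0.86 without the 2 arrays farthest from the median). Within groups of 6 arrays the Pearson correlation was 0.98 in control adults, 0.65 in S_O2_A adults, 0.92 in control larvae and 0.96 in S_O2_A larvae. The core subunits had -0.43. The points share their scaling, and arrays of a population share their animals' origin. The paralogue deviations also ran with those of the 29 testis genes, with a Pearson correlation of 0.97, and this was 0.92 under quantile normalization and 0.94 with median centring. Under those scalings the standard deviation of the paralogue median between arrays was 0.40 and 0.36 in place of 0.52. Its correlation with the array median of the signals as deposited was 0.80 and 0.82. Whether the testis content of a sample or the scaling of an array moved these genes was not tested.

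**Figure D5:**
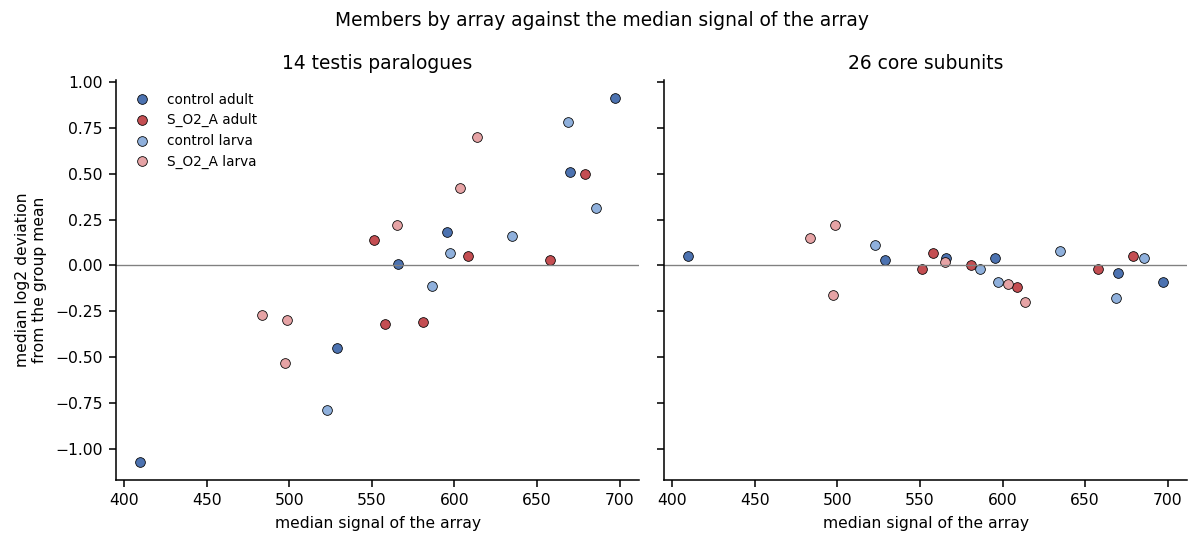
Median log2 deviation from the group mean of the 14 testis paralogues (left) and the 26 core subunits (right) on each of the 24 arrays, against the median signal of the array (linear axis); colours are the 4 groups. The paralogues run from -1.07 at a median signal of 409.6 to 0.91 at 697.4, while the core subunits stay near 0.

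Partners of the proteasome were described from a list of 28 genes, of which 26 were measured: regulators, assembly factors, ubiquitin genes and shuttles. None was called in adult selection, larval selection or the interaction, where 0.357%, 1.65% and 1.97% of all probe sets were called. In that order, 5, 3 and 5 had an unadjusted p from limma under 0.05, beside 11.1%, 16.2% and 17.8%. The median log2 fold change was 0.11 in adults and -0.05 in larvae, beside 0.06 and -0.11 over all probe sets. The regulator cnc had 0.08 in adults (adjusted p = 0.931) and -0.02 in larvae (adjusted p = 0.982), and Keap1, which restrains Cnc, had 0.37 (adjusted p = 0.419) and -0.08 (adjusted p = 0.815). The ubiquitin genes Ubi-p63E and Ubi-p5E had 0.31 (adjusted p = 0.21) and 0.36 (adjusted p = 0.244) in adults.

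Between stages the partners moved both ways, with 10 higher and 7 lower in control adults and 13 higher and 7 lower in S_O2_A adults, of 26. Of all probe sets, 28.9% were higher and 22.1% lower in controls, and 34.1% and 19.4% in S_O2_A. Npl4 (1.14 in controls, 0.79 in S_O2_A) and p47 (1.05 and 0.76), cofactors of the segregase TER94 (0.36 and 0.36), and Uch-L5 (0.93 and 1.20), a deubiquitinase of the cap, were higher in adults. The assembly factor PSMG1 (0.88 and 0.80) and the shuttle Rad23 (0.50 and 0.64) were higher as well. The maturation factor Pomp (-0.98 and -0.57), cnc (-1.29 and -1.19) and its partner maf-S (-0.28 and -0.25) were lower in adults of both groups.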

How the data were processed

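RNA of adults and larvae was measured on 24 arrays. The authors deposited 1 intensity per probe set and array on a linear scale (all above 0), already brought to the same trimmed mean on every array. MBEI (dChip) and RMA are named in the methods. The medians of the deposited arrays differ, so these signals were not quantile-normalized, which is a usual step of RMA. Their software is otherwise not stated in the sources used here. Of 18952 probe sets, 183 array controls were left out. Of the 18769 tested, 13647 had 1 gene symbol in the platform annotation, 402 had several and 4720 had none listed there. The table held 0 value columns of no sample. Signals were floored at 1 and taken as log2, so that an equal ratio weighs the same in dim and bright probe sets. A small difference in signal thus weighs more in a dim probe set than in a bright one.

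Groups, populations and array numbers came from the sample labels. Selection was fitted within each stage (12 arrays), and the interaction and stage differences over 24 arrays, with limma 3.58.1 in R 4.3.3 (lmFit, eBayes, duplicateCorrelation for the population). Arrays of a population correlated by 0.133 in the adult fit, by 0.153 in the larval fit and by 0.0425 in the fit over both stages. P-values were adjusted over all probe sets by Benjamini-Hochberg, with a threshold of 0.05. Tables and plots were made with Python 3.11.15, numpy 2.4.6, pandas 2.3.3, scipy 1.17.1 and matplotlib 3.10.9, and the fits were tested on simulated data.

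Group values are given for all paralogues, for Prosbeta2 and Prosbeta5, and for the core subunits with the 3 largest differences in adult selection, in larval selection or between stages in controls. Rpn5, Rpt5, Prosbeta3, Prosbeta7 and others are named as members for which a call or a setting is described. The genes and lists were chosen with earlier results of these data known. Alternatives were quantile normalization, centring each array on its median, independent arrays, population means, no dim probe sets, a higher floor, a replicate block, a variance trend, other arrays in the fit, the methods' t-test, the array number as a term, first or second arrays alone, and each population left out. The replicate block was a fixed term for the population number in the selection comparisons, and for each population in the interaction and between stages. Sequences of the genes were not used here.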

Additional observations from a re-analysis of the deposited data

Results flagged for a closer look

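Of 160 groups of 6 arrays, 8 had a highest or lowest signal set apart from the other 5, with a gap, as a share of the range of the group, above Dixon's 95% critical value. About 8 would be set apart by chance, at 1 in 20.

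In control larvae, Rpn12 was high on the first array of population 3 (24524, against 18024 to 19647 on the others, gap 0.75), and Prosbeta3 was high on the same array (42664, against 33488 to 36909, gap 0.627). Rpn13 was low on the first array of population 1 (8742, against 11344 to 12319.6, gap 0.727), and so was Rpt3 (10130.0, against 12645 to 13847, gap 0.677). In control adults, the first array of population 3 was low in Rpt5 (12788, against 14897 to 16013, gap 0.654) and high in Prosalpha3T (703, against 77.5 to 294, gap 0.654). Prosbeta2R1 was low on the second adult array of control population 2 (309, against 670.1 to 857, gap 0.659). In S_O2_A larvae, Rpt4R was high on the second array of population 1 (1219, against 514 to 644, gap 0.816).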

How the results depend on the processing

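The count of called genes was 0 in adult and in larval selection under every alternative run. Population means and second arrays alone, however, called 0 of all probe sets in adults and in larvae. First arrays alone called 6 in adults and 0 in larvae. Where no probe set was called, a count of 0 cannot show whether the result is stable. The remaining alternatives called 0.0266% to 1.49% of all probe sets in adults and 0.325% to 5.15% in larvae. In the interaction the count was 1 (Prosbeta5R2) with a fixed term for each population and 0 under the others. There, too, population means and second arrays alone called 0 of all probe sets. Between stages in controls, 13 core calls became 21 under quantile normalization, 5 with population means, 1 with first arrays alone, 4 with second arrays alone, and 5 to 11 with 1 population left out. There, 6 paralogue calls became 3 with population means, 0 with first arrays alone, 2 with second arrays alone, and 1 to 7 with 1 population left out. In S_O2_A, 14 core calls became 24 under quantile normalization and 5 with median centring, beside 51.6% and 50.5% of all probe sets. They became 5 with first arrays alone (beside 39.7%) and 10 to 15 with 1 population left out (beside 47.7% to 49.1%). The 3 paralogue calls became 6 under quantile normalization, 5 with median centring, and 1 to 2 with 1 population left out. The methods' t-test at a fold over 1.5 and a Bonferroni p under 0.0001 called 0 in each of these stage counts. Among core subunits, only Rpn2 (1.52-fold) passed that fold in controls, and only Rpn11 (1.55), Rpn2 (1.59) and Rpn8 (1.57) in S_O2_A. For the other core subunits the fold threshold fixed the result in advance. Under quantile normalization the stage values of Prosbeta7 turned to 0.21 in controls and 0.45 in S_O2_A, and that of Prosbeta3 to 0.24 in S_O2_A. Of 3520 values of single genes under alternatives, 3352 stayed on their side of the threshold, among them 212 that changed sign with no call, while 114 lost a call, 51 gained one and 3 reversed. The cause of these changes was not tested. Values from adult selection, larval selection and the interaction are in this total, and with no call in the main fit they could not lose one. The number that stayed is therefore no measure of how stable the stage calls were. Samples of control and S_O2_A with the same population number share only the number (correlation of their deviations -0.08 to 0.12). Adult and larval samples of 1 population correlated as weakly (-0.07 to 0.1), although the fits over both stages treated the population as a block. A fixed term for each population gave 15 and 16 core calls and 6 and 3 paralogue calls between stages, beside 51.0% and 53.6% of all probe sets. Keeping 1 probe set per gene was not run, since each gene had 1. Signals under the 20th percentile of 90.4 limit Prosbeta5R2 most.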
